A study of Mus musculus with 19 samples.

Results

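The comparison of kainate with saline in the hippocampus of EZH2 wildtype mice rested on 10 of the 19 RNA-seq libraries of the study, which were taken by their labels as the 5 WT saline and 5 WT kainate libraries. All 10 came from C57BL6 mice with both EZH2 alleles intact and the Synapsin1-Cre driver (EZH2(+/+);Syn1Cre(+/-)), so the saline controls carried the neuronal Cre transgene as well. EZH2 is the histone methyltransferase of the Polycomb repressive complex PRC2. The WT kainate mice had status epilepticus, a prolonged seizure, induced by repeated low doses of kainate, and the WT saline mice had an intraperitoneal saline injection. The tissue, labelled R. Hippocampus, was taken 4 days later, and ages are not stated in the labels. The other 9 libraries (5 EZH2nHom saline, 4 EZH2nHom kainate) came from mice with neuronal deletion of EZH2. They entered the filter on low counts, the scaling of the libraries and the estimate of the spread. The group means compared were those of the 10 WT libraries. The labels number the libraries 1 to 5 in each group without saying that each is a separate animal, so the p-values measure the spread between these samples.

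Kainate is an agonist of glutamate receptors that drives pyramidal cells of the hippocampus into sustained firing. Astrocytes and microglia near dying or overactive neurons are known to take on reactive states, in which astrocytes build up intermediate filaments and secrete matrix and complement proteins, and microglia divide and take up debris. Dentate granule cells are known to survive and to change their peptides and calcium-binding proteins. In whole tissue, fewer cells of a type and less RNA per cell cannot be told apart, and the same holds for more cells and more RNA per cell.

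The saline libraries held 26607591 to 33649565 reads and the kainate libraries 24496685 to 38436154, and 23825 to 24887 genes had a read in a library. Of the markers set for the tissue, those of granule cells, CA1, CA3 and CA2 pyramidal cells, inhibitory neurons, astrocytes, microglia, oligodendrocytes and endothelium were read in every library. The T and B cell markers Cd3e, Cd3d and Ms4a1 and the neutrophil marker Ly6g had between 0 and 12 reads over the 5 libraries of a group. The other neutrophil markers, S100a8 and S100a9, were read in every library. S100a8 had 83 reads in saline and 118 in kainate, and S100a9 had 118 and 138. Levels are given as CPM, the reads of a gene per 1000000 reads of its library after TMM scaling. The choroid plexus transthyretin gene Ttr ran from 4.53 to 3667 CPM in saline and from 11.9 to 1061 CPM in kainate. Structural RNAs such as Rmrp and Rpph1 took 0.0423 ± 0.0108% of reads (SD, n = 5) in saline and 0.127 ± 0.0499% (SD, n = 5) in kainate (exact two-sided permutation p = 0.0159, 0.0794 adjusted over the 5 library measures). Kainate replicate 1, at 0.0452%, lay within the saline range of 0.0343 to 0.0601%. Red blood cell genes took 0.0417 ± 0.0241% and 0.111 ± 0.0695% (SD, n = 5, exact permutation p = 0.0397, adjusted 0.0992), highest in kainate replicates 1 and 3. Mitochondrial genes took 9.39 ± 0.535% and 8.24 ± 1.01% (SD, n = 5, exact permutation p = 0.0714, adjusted 0.119). Xist reads marked replicates 1 and 2 of both groups and Y-linked reads replicates 3 to 5 of both.

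Kainate raised far more genes than it lowered. A gene passed the edgeR quasi-likelihood test at a Benjamini-Hochberg adjusted p under 0.05 over the 19234 genes tested. By that rule 1821 genes were higher (9.47% of those tested) and 495 lower (2.57%), 12% in all, and 1075 of the higher genes (5.59% of those tested) and 96 of the lower (0.499%) moved by 2-fold or more. Over all genes tested the median log2 change was -0.016. The CPM ranges of the groups did not overlap for 2773 genes (14.4%), among them 1779 of the 2316 that passed. With the structural RNA share as a covariate 605 genes passed, 510 higher and 95 lower, and the part of that share in the result was not tested. The slope of that covariate was fitted over all 19 libraries, and the share was 0.6841% in EZH2nHom kainate replicate 4. The counts also fell without kainate replicate 4 (1143 higher, 217 lower) and, for all calls, without kainate replicate 3 (1403) or saline replicate 2 (1523).

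**Figure D1:**
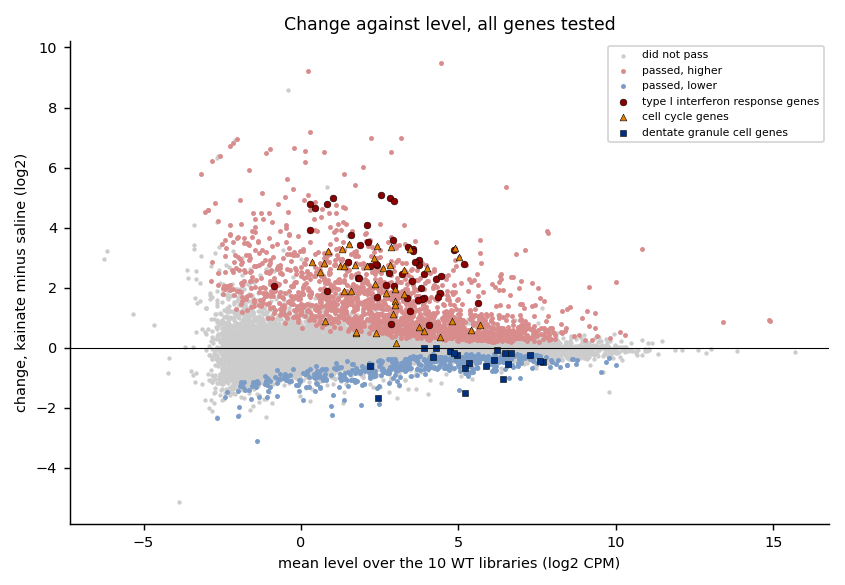
Mean level over the 10 WT libraries (x axis, log2 CPM) against the log2 change, kainate minus saline (y axis), for the genes tested. Grey points did not pass, light red and light blue points passed as higher and lower. All 49 type I interferon response genes and all 40 cell cycle genes lie above 0, and the dentate granule cell genes lie below it.

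The kainate libraries differed from each other far more than the saline libraries did. On the leading principal component of log2 CPM, which held 47.1% of the variance of the 10 libraries, the saline libraries lay between -49.2 and -36. Kainate replicates 1 to 5 lay at -1.7, 20, 76, 102.7 and 17.8. Among the 802 higher genes that averaged at least 10 CPM, the SD of log2 CPM was larger in kainate for 762 (95%), with a median of 0.338 against 0.109 in saline. Among the 283 lower genes it was larger for 233 (82.3%), and among 8708 genes that did not pass for 75.9%. Kainate replicate 4 had the highest mean in all 17 of the gene lists with 10 or more higher members, and the lowest mean fell to kainate replicate 1 in 15 lists and kainate replicate 5 in 2.

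**Figure D2:**
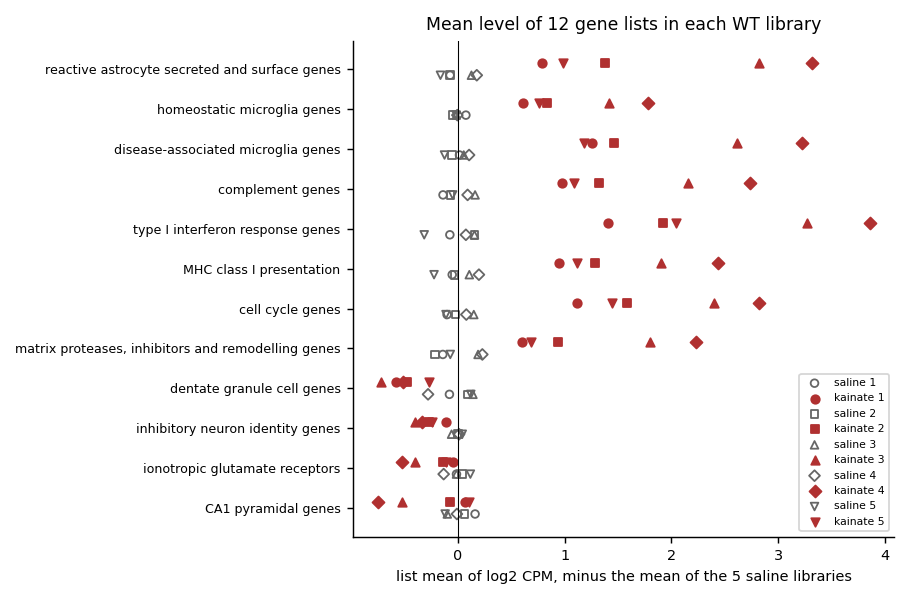
Mean log2 CPM of 12 gene lists in each WT library, as the difference from the mean of the 5 saline libraries (x axis). Open symbols are saline and filled symbols kainate, with 1 symbol shape per replicate number. Kainate replicates 3 and 4 lie farthest from saline in the glial lists.

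Astrocyte genes held several of the smallest p-values. Gfap (ENSMUSG00000020932), the intermediate filament that defines reactive astrocytes, had the smallest p of all genes tested. Gfap stood at 350.3, 329, 330.2, 335 and 346 CPM in saline replicates 1 to 5 and at 1916, 2865, 4380.5, 4423 and 2698 CPM in kainate replicates 1 to 5. No kainate library came near the saline range, and the log2 change was 3.27 ± 0.20 (SE, adjusted p = 1.87e-08). Vim (ENSMUSG00000026728), the filament vimentin that immature and reactive astrocytes share, rose by 3.81 ± 0.34 from 30.5 ± 4 to 427 ± 266 CPM (SD, n = 5). Of 13 intermediate filament genes tested, 4 were higher and 1 lower, against 9.47% and 2.57% of all genes. The median change was 0.39. Nes, nestin, rose by 1.68 ± 0.47, with kainate replicates 3 and 4 at 46.9 and 96.7 CPM and the others between 13.7 and 22 CPM. Its call ended without saline replicates 1, 2 or 5 or kainate replicates 3 or 4 (adjusted p 0.0507 to 0.12). The fourth, the nuclear lamin gene Lmnb1, rose with them, and Synm, the filament partner synemin, fell by 0.47 ± 0.10 without overlap (53.7 to 65.7 CPM in saline and 35.3 to 47.2 CPM in kainate). The neurofilament genes Nefl, Nefm and Nefh did not pass.

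Genes that reactive astrocytes secrete or carry on their surface rose in 22 of 31 tested, against 9.47% of all genes, and fell in none. Their median change was 2.10. Serpina3n, a secreted serine protease inhibitor, went from 28.5 ± 1.38 to 422 ± 317 CPM (3.89 ± 0.44). Serpina3n stood at 29.8, 26.6, 29.8, 28.4 and 27.7 CPM in saline replicates 1 to 5 and at 103, 262, 719, 804 and 221 CPM in kainate replicates 1 to 5. Even the lowest kainate library was far above the saline range, and replicates 3 and 4 were the highest. Timp1, the inhibitor of matrix metalloproteinases, rose by 6.52 ± 0.84 (0.0692 to 0.215 CPM in saline and 1.22 to 31.4 CPM in kainate). S100a6, a calcium-binding protein, rose by 2.72 ± 0.29, Ggta1, a galactosyltransferase, by 2.31 ± 0.21, and the hyaluronan receptor Cd44 by 2.93 ± 0.48. Osmr, the oncostatin M receptor subunit, rose by 2.55 ± 0.44 (5.08 to 5.76 CPM in saline and 11.1 to 67.4 CPM in kainate). S1pr3, a receptor for sphingosine-1-phosphate, was among the 6 most variable genes in kainate. S1pr3 stood at 7.28, 8.56, 8.22, 8.05 and 8.3 CPM in saline replicates 1 to 5 and at 9.15, 18.6, 87.4, 113 and 13 CPM in kainate replicates 1 to 5. Kainate replicates 3 and 4 stood far above the others, and replicate 1 lay just above saline. Lcn2, lipocalin 2, ranged from 0.0612 to 0.31 CPM in saline and from 0.288 to 66.8 CPM in kainate, so the groups overlapped although it passed (adjusted p = 0.00504). In the fit with the structural RNA covariate 10 were higher.

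Of 24 genes with which resting astrocytes clear glutamate, buffer potassium and feed neurons, 6 were higher and 1 lower, with a median of 0.24. The shares over all genes tested were 9.47% higher and 2.57% lower. Aqp4, the water channel of astrocyte endfeet, rose by 0.97 ± 0.19 (289.8 to 350.5 CPM in saline and 454 to 844 CPM in kainate), the folate enzyme Aldh1l1 by 1.02 ± 0.14 and the inward rectifier Kcnj10 by 0.74 ± 0.18. The sodium pump subunit Atp1b2 and the connexin Gja1 were also among the 6. Slc6a11, the astrocyte GABA transporter GAT3, fell by 0.46 ± 0.15 (100.2 to 107 CPM in saline and 56.7 to 95.8 CPM in kainate), a call that ended without any of saline replicates 1, 2, 3, 4 or 5 or kainate replicates 2, 3, 4 or 5 (adjusted p 0.0645 to 0.166). The glutamate transporter Slc1a2 (3445 to 4119 CPM in saline and 2996 to 4294 CPM in kainate, adjusted p = 0.741) and glutamine synthetase Glul (1609 to 1782 CPM in saline and 1255 to 1591 CPM in kainate, adjusted p = 0.192) did not pass. Without kainate replicate 3, or without kainate replicate 4, 3 members were higher in place of 6, and 1 was with the structural RNA covariate.

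**Figure D3:**
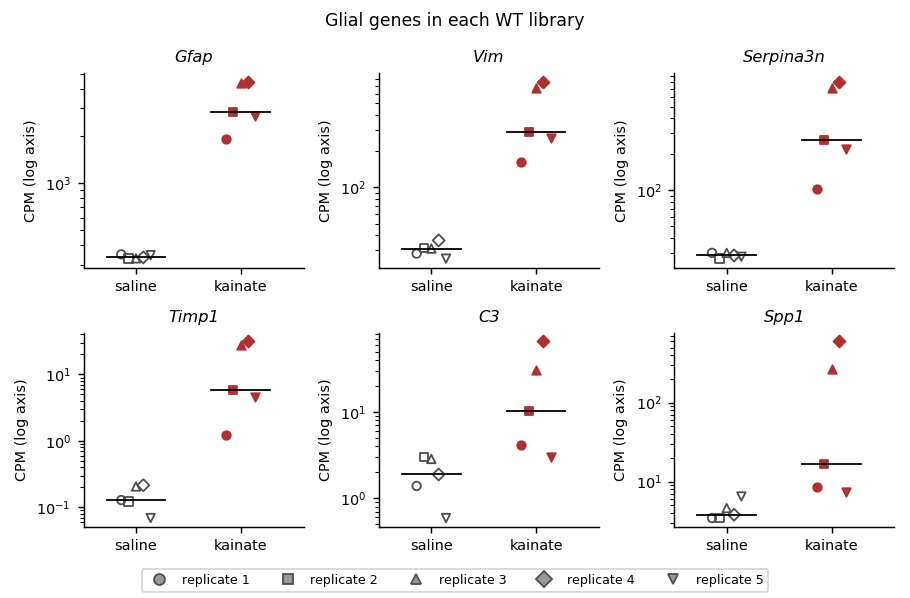
Level of 6 genes of glial cells in each WT library (y axis, CPM on a log axis) after saline (open) and kainate (filled). Symbol shapes are replicate numbers and lines are medians. The kainate points lie above all saline points in each panel, and replicates 3 and 4 are the highest for all 6 genes.

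Microglial genes rose both where they mark resting cells and where they mark activated ones. Of 25 homeostatic microglia genes 20 were higher and 0 lower (median 1.10), against 9.47% and 2.57% of all genes tested. Csf1r, the receptor that microglia need to survive, rose by 1.56 ± 0.21. Csf1r stood at 112, 99, 105, 107 and 108 CPM in saline replicates 1 to 5 and at 201, 250.5, 351, 518 and 244 CPM in kainate replicates 1 to 5. The saline libraries lay close together, and the kainate libraries all lay higher and spread widely. The cathepsin Ctss rose by 2.14 ± 0.23, Olfml3 by 2.20 ± 0.35 and Tmem119 by 1.46 ± 0.27. P2ry12, the purinergic receptor that steers microglial processes, rose by 0.83 ± 0.22 (44.4 to 55.5 CPM in saline and 68.5 to 112 CPM in kainate), and the fractalkine receptor Cx3cr1 by 1.10 ± 0.33. The call of P2ry12 ended without kainate replicate 4 (adjusted p = 0.0564), and that of Cx3cr1 without saline replicates 1, 2, 3, 4 or 5 or kainate replicates 3 or 4 (adjusted p 0.0674 to 0.146).

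Of 30 disease-associated microglia genes 25 were higher and 0 lower (median 2.10), against 9.47% and 2.57% of all genes tested. Clec7a, the beta-glucan receptor dectin-1, went from 0.606 ± 0.151 to 10.7 ± 8.85 CPM (4.12 ± 0.46). The integrin Itgax rose by 3.46 ± 0.49, the lipid-sensing receptor Trem2 by 2.07 ± 0.30 and its signalling adaptor Tyrobp by 2.27 ± 0.29. Gpnmb, a glycoprotein of lipid-laden phagocytes, rose by 3.52 ± 0.53 and lysozyme Lyz2 by 3.58 ± 0.56 (6.43 to 9.83 CPM in saline and 28.5 to 251 CPM in kainate). Spp1 (ENSMUSG00000029304), the secreted phosphoprotein osteopontin, had the largest spread among kainate libraries of all genes that passed and averaged at least 10 CPM. Spp1 stood at 3.45, 3.46, 4.61, 3.8 and 6.47 CPM in saline replicates 1 to 5 and at 8.57, 16.6, 266, 598 and 7.46 CPM in kainate replicates 1 to 5. Kainate replicates 3 and 4 far exceeded the others, and even the lowest kainate value, in replicate 5, was above the highest saline value. Its log2 change was 5.37 ± 1.22 (adjusted p = 0.00827). Not every gene of the list passed: Apoe (751 to 897 CPM in saline and 929.8 to 1465 CPM in kainate, adjusted p = 0.0885), the lipoprotein lipase Lpl (adjusted p = 0.766) and Igf1 (adjusted p = 0.489) did not pass. With the structural RNA covariate 15 disease-associated and 9 homeostatic members were higher.

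Lysosomal and phagocytic genes were higher in 18 of 29 tested (median 0.58), against 9.47% of all genes. The protease Ctsd, a member of the disease-associated list, went from 376 ± 60.8 to 1693 ± 1183 CPM, progranulin Grn rose by 1.92 ± 0.33 and the lysosomal membrane protein Laptm5 by 1.85 ± 0.28. Fc receptors and other immunoreceptors, among them receptors that bind antibody or damaged cells, were higher in 22 of 26 (median 1.87). The activating receptor Fcgr3 rose by 2.08 ± 0.22, the high-affinity Fcgr1 by 2.50 ± 0.39, the inhibitory Fcgr2b by 2.81 ± 0.37 and the sialic acid lectin Cd33 by 1.71 ± 0.20. Of 29 genes of the Toll-like receptor pathway 16 were higher. Tlr2, which senses bacterial lipoproteins, lay at 1.1 to 1.99 CPM in saline and 5.25 to 37 CPM in kainate (3.41 ± 0.53), Tlr7, which senses RNA, rose by 2.28 ± 0.36 and the co-receptor Cd14 by 1.69 ± 0.34. The structural RNA covariate left 8, 14 and 7 members of these lists higher, in the same order.

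Complement, the protein cascade that tags material for removal, was higher in 17 of 22 genes and lower in 1, with a median of 1.82. The shares over all genes tested were 9.47% higher and 2.57% lower. C1qa, C1qb and C1qc, the 3 chains of the initiating C1q molecule, rose by 2.35 ± 0.32, 2.35 ± 0.29 and 2.46 ± 0.32. C4b, the next step of the cascade, had the second smallest p of all genes. C4b stood at 24.4, 29.1, 24.9, 27.1 and 25 CPM in saline replicates 1 to 5 and at 122, 222, 342, 399.9 and 156 CPM in kainate replicates 1 to 5. The groups lay far apart, and the saline libraries within a few CPM of each other. C3, the central component, rose by 3.55 ± 0.78. C3 stood at 1.39, 3, 2.86, 1.89 and 0.588 CPM in saline replicates 1 to 5 and at 4.19, 10.2, 30.7, 66.3 and 3.01 CPM in kainate replicates 1 to 5. Its kainate range began just above the saline range, in replicate 5, and ended far above it, in replicate 4. The receptor for the C3a fragment, C3ar1, rose by 3.22 ± 0.47, and the alternative pathway gene Cfb by 4.84 ± 0.87. Cd46, a membrane inhibitor of complement, was the gene that fell (-0.64 ± 0.16, 4.64 to 7.71 CPM in saline and 3.17 to 4.26 CPM in kainate). Under the structural RNA covariate 10 were higher and 0 lower.

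Chemokine ligands, which recruit leukocytes, split in direction. Of 21 tested 11 were higher and 2 lower, against 9.47% and 2.57% of all genes. Ccl3 (0.0346 to 0.214 CPM in saline and 0.928 to 5.88 CPM in kainate) and Ccl4 (0 to 0.129 CPM in saline and 0.415 to 2.27 CPM in kainate), ligands of shared receptors, and the monocyte attractant Ccl12 (0.0688 to 0.215 CPM in saline and 0.704 to 8.28 CPM in kainate) rose without overlap, each from a few reads per saline library. Cxcl10, an interferon-induced ligand, ran from 0.161 to 0.703 CPM in saline and from 0.672 to 26.5 CPM in kainate (adjusted p = 0.0011). Ccl2 lay at 0 to 0.108 CPM in saline and at 0.096, 0.388, 3.63, 6.98 and 0.32 CPM in kainate replicates 1 to 5, so replicates 3 and 4 carried the difference. Cxcl9 had 0 reads over the 5 saline libraries and 43 in kainate, at least 13.8-fold higher against a floor of 3 reads over the group, which covers counting error only. A gene with 0 saline reads, as also Il1rn and Fosl1 below, could pass the filter on low counts only through other groups. Its being tested therefore depended on its level there. Cxcl12, which guides neural progenitors, and Cxcl14, a chemokine of interneurons, fell by 0.57 ± 0.14 and 0.40 ± 0.11, the first with overlap because of kainate replicate 1. Of 11 chemokine receptors tested 6 were higher, among them Ccr1 (2.54 ± 0.48) and the monocyte receptor Ccr2 (2.94 ± 0.94). Ccr1 passed whichever library was left out, but without any 1 of saline replicates 1 to 5 or kainate replicates 3 and 4 only 1 or 2 receptors were higher.

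Among 21 inflammatory cytokines tested 9 were higher and 0 lower, against 9.47% and 2.57% of all genes. Il1a (0.485 to 1.06 CPM in saline and 1.41 to 4.16 CPM in kainate) and Il1b (0 to 0.153 CPM in saline and 0.221 to 1.22 CPM in kainate), the interleukin-1 agonists, rose without overlap, and the antagonist Il1rn had 0 reads in saline and 62 in kainate, at least 21.8-fold higher against the floor of 3 reads. Tnf did not pass (adjusted p = 0.081), with 0.617 and 1.61 CPM in kainate replicates 3 and 4 and at most 0.16 CPM in the other 8 libraries, and Il6 had 4 and 12 reads and was not tested. Cntf and Clcf1, ligands of the gp130 receptor family, rose by 1.86 ± 0.27 and 2.77 ± 0.73, the second only with kainate replicate 4, at 9.61 CPM, in the fit (adjusted p = 0.114 without it). The shared receptor gp130, Il6st, rose by 0.61 ± 0.09, and the tumour necrosis factor receptor Tnfrsf1a by 1.77 ± 0.32, 2 of 15 cytokine receptors higher among 28. Downstream, 9 of 29 JAK-STAT genes were higher, with Stat3 at 1.05 ± 0.27, Stat6 at 1.19 ± 0.24 and the feedback inhibitor Socs3 at 3.25 ± 0.77. Socs3 stood at 0.806, 1.19, 0.895, 1.32 and 1.11 CPM in saline replicates 1 to 5 and at 1.98, 3.96, 16.6, 26.2 and 2.82 CPM in kainate replicates 1 to 5. As for Spp1 and C3, kainate replicates 3 and 4 stood apart from the others. With the structural RNA covariate 3 cytokines, 8 receptors and 0 JAK-STAT genes were higher.

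All 49 type I interferon response genes tested were higher after kainate, against 9.47% of all genes, with changes from 0.77 to 5.10 and a median of 2.71. This list, like the others, was chosen with earlier results of these data known, so the contrast with all genes is not an independent test. These genes are switched on by an interferon-activated transcription factor complex, which binds the interferon-stimulated response element in their promoters. The 300-base windows from 250 bases before to 50 bases after the gene start (RefSeq, GRCm38.p6, 5′ to 3′ on the gene's strand) are shown for the 4 members with the smallest p whose window holds the core of that element, GAAA, any 2 bases and GAAA on either strand, in capitals. They are Gbp2 at chr3:142620413-142620712 (+), Gbp3 at chr3:142559794-142560093 (+), Rsad2 at chr12:26456403-26456702 (-) and Ifit1 at chr19:34640639-34640938 (+).
Gbp2: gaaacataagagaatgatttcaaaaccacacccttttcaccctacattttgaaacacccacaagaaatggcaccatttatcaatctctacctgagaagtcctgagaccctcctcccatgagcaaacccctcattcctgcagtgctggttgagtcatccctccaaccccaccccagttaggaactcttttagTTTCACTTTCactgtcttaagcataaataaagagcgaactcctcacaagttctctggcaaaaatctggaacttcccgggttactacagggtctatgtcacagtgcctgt
Gbp3: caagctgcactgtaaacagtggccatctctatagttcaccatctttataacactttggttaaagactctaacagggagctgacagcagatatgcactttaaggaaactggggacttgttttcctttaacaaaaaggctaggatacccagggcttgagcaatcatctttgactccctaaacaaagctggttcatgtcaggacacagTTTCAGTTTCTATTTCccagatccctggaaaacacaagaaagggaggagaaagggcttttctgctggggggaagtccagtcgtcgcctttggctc
Rsad2: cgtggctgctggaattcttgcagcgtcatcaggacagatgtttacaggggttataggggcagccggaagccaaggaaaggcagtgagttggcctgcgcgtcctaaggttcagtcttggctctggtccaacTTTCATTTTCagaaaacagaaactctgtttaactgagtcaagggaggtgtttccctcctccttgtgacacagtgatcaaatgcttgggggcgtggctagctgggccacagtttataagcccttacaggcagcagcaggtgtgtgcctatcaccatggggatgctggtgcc
Ifit1: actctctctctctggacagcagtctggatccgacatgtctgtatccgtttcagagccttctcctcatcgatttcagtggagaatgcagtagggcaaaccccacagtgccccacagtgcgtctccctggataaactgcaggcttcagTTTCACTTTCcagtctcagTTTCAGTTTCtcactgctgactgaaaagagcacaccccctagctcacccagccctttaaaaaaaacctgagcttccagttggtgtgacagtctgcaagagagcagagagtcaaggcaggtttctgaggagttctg

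Of the 49 genes, 35 had windows in the table, 42 windows in all, and 23 of these (54.8%) held the core, in 22 genes. The core occurred in 3.1% of the 16470 windows of genes tested, in 6.36% of those of genes that were higher and in 3.93% of those of genes that were lower. Gbp2, a guanylate-binding GTPase, went from 3.12 ± 0.441 to 23.8 ± 16 CPM (2.92 ± 0.40). Gbp2 stood at 2.64, 3.58, 3.27, 3.45 and 2.66 CPM in saline replicates 1 to 5 and at 8.8, 15.1, 33.9, 46.9 and 14.4 CPM in kainate replicates 1 to 5. In Rsad2, the antiviral enzyme viperin, the order of the libraries was another. Rsad2 stood at 2.1, 2.2, 3.1, 1.53 and 1.45 CPM in saline replicates 1 to 5 and at 13.4, 4.54, 16.6, 17.4 and 6.39 CPM in kainate replicates 1 to 5. Kainate replicate 1, low for most lists, reached 13.4 CPM here, close to replicates 3 and 4. The dynamin-like Mx1 rose without overlap (0.0692 to 0.161 CPM in saline and 0.48 to 10.6 CPM in kainate). Ifit1, which binds foreign RNA, rose by 3.35 ± 0.50, the ubiquitin-like Isg15 by 3.41 ± 0.61, the DNA sensor Ifi204 by 4.97 ± 0.62 and Irf7, the factor that amplifies interferon production, by 3.59 ± 0.60. Oasl2 (3.28 ± 0.55) and Lgals3bp (2.78 ± 0.37) rose as well. The interferon genes Ifnb1 and Ifng themselves had 1 and 2 reads in kainate and 0 in saline and were not tested. Leaving out any 1 library kept 44 to 49 of the 49, and the structural RNA covariate kept 26.

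Antigen presentation rose in both classes. Of 21 MHC class I genes 16 were higher (median 1.88), against 9.47% of all genes tested. The class I heavy chains H2-D1 and H2-K1 rose by 2.46 ± 0.30 and 2.15 ± 0.36, their partner B2m by 1.97 ± 0.28 (41.5 to 54.7 CPM in saline and 123 to 341 CPM in kainate), the peptide transporter Tap1 by 2.10 ± 0.34, the immunoproteasome subunit Psmb8 by 2.30 ± 0.37 and their transactivator Nlrc5 by 3.19 ± 0.55. In the class I list 5 of 21 windows (23.8%) held the same core. Of 15 class II genes 11 were higher (median 1.90). H2-Ab1, a class II beta chain, ran at 0.38 to 1.24 CPM in saline and 1.15 to 18.3 CPM in kainate, and Cd74, the invariant chain, stood at 40.5 CPM in kainate replicate 4 against 2.53 to 11 CPM in the other kainate libraries and 1.48 to 3.17 CPM in saline. Ciita, the class II transactivator, rose by 3.32 ± 0.78. Without saline replicate 2 or 5 or kainate replicate 4, 7 class II genes were higher, and 3 were with the structural RNA covariate against 10 of class I.

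**Figure D4:**
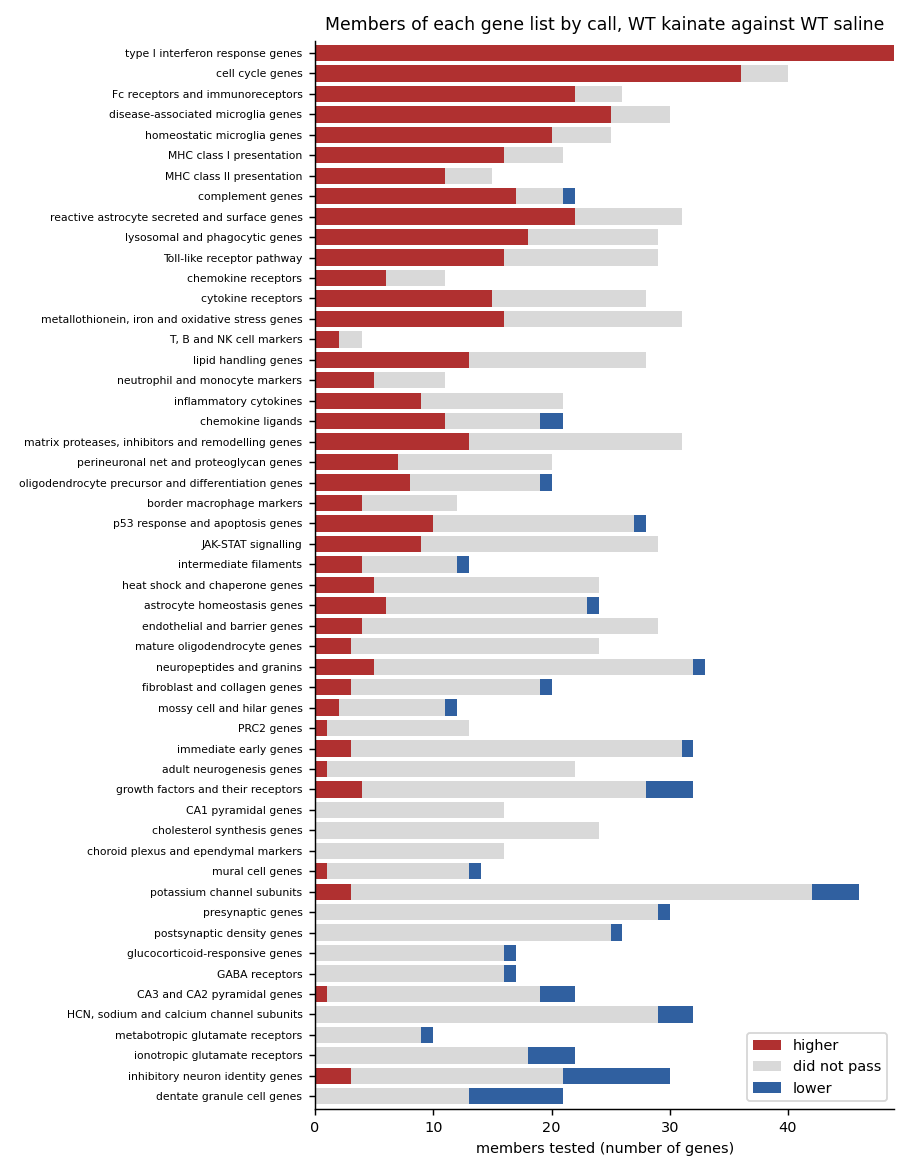
Number of members of each gene list (x axis, genes tested) that were higher, lower or did not pass. Interferon, cell cycle and microglial lists are red almost throughout, and blue is longest for the dentate granule cell and inhibitory neuron lists.

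Most lymphocyte markers had few reads. Of 20 T, B and NK cell markers 16 had too few reads to be tested, and 2 of the other 4 were higher, Trbc2 (0.0688 to 0.277 CPM in saline and 0.346 to 1.71 CPM in kainate) and Cd79b (0.108 to 0.245 CPM in saline and 0.266 to 1.29 CPM in kainate). Of 18 neutrophil and monocyte markers 11 were tested and 5 were higher, Vcan, Fn1, Ccr2, Plac8 and Chil3, but only 2 or 3 without any 1 of saline replicates 1 to 5 or kainate replicates 3 and 4. Vcan is also a member of the CA3 and CA2 list and of the perineuronal net list, and Ccr2 of the chemokine receptors. Plac8 (0 to 0.103 CPM in saline and 0.128 to 3.06 CPM in kainate) and Chil3 (0.0692 to 0.241 CPM in saline and 0.106 to 14.9 CPM in kainate) were almost at 0 outside kainate replicates 3 and 4, and the neutrophil genes S100a8 and S100a9 did not pass. The call of Chil3 ended without saline replicates 1, 2 or 5 or kainate replicate 4 (adjusted p 0.0502 to 0.105). Of 12 border macrophage markers 4 were higher, among them Folr2 and Ms4a7, where 9.47% of all genes tested were higher. The sialoadhesin Siglec1 rose by 3.13 ± 0.59 and the scavenger receptor Stab1 by 1.89 ± 0.43, whereas Mrc1 (6.38 to 9.43 CPM in saline and 7.29 to 9.81 CPM in kainate) and Lyve1 (0.551 to 0.934 CPM in saline and 0.218 to 0.768 CPM in kainate), which mark these macrophages, did not pass (adjusted p = 0.801 and 0.703).

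Of 29 endothelial and barrier genes 4 were higher and 0 lower, with a median of 0.24, where 9.47% of all genes tested were higher. Icam1, an adhesion molecule for leukocytes, rose by 2.06 ± 0.38 and the tight junction scaffold Tjp1 by 0.42 ± 0.10. The adhesion gene Selp and von Willebrand factor Vwf (1.59 ± 0.46) were the others, and Vwf did not pass without saline replicates 1, 2 or 3 or kainate replicates 3 or 4 (adjusted p 0.0682 to 0.129). Vcam1 (28.7 to 44.2 CPM in saline and 37.4 to 87.4 CPM in kainate, adjusted p = 0.0928) and the claudin Cldn5 (adjusted p = 0.298) did not pass. Of 7 red blood cell genes 6 were higher, all with overlap. Hbb-bs stood at 142, 189, 408, 149 and 148 CPM in saline replicates 1 to 5 and at 999, 296, 718, 305 and 346 CPM in kainate replicates 1 to 5. Kainate replicates 1 and 3 were highest, and saline replicate 3 lay above the other kainate libraries. No red blood cell gene passed without any 1 of saline replicates 1, 2, 4 and 5 or kainate replicates 1 and 3, and 3 passed without kainate replicate 4.

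Other cell types of vessels and borders had calls in both directions. Of 14 mural cell genes Tagln was higher and Myh11 lower, and of 20 fibroblast and collagen genes Col5a2, Col6a1 and Col3a1 were higher and Ogn lower, where 12% of all genes tested passed. Leaving out 1 library ended these calls in several of the refits. Of the collagen genes 0 were higher without kainate replicate 3 or 4. Tagln did not pass without any 1 of saline replicates 1, 2, 3 and 5 or kainate replicates 3 and 4. Of 16 choroid plexus and ependymal markers 0 passed, with a median of -0.91.

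Most genes of cell division rose. Of 40 tested 36 were higher (median 2.33), against 9.47% of all genes. The CPM ranges of 36 did not overlap, against 14.4% of all genes. Mki67, the proliferation marker, went from 7.09 ± 1.62 to 57.5 ± 41.2 CPM (3.02 ± 0.38). Mki67 stood at 6.22, 7.86, 9.5, 6.52 and 5.36 CPM in saline replicates 1 to 5 and at 24.9, 34.5, 78.7, 120.4 and 29.2 CPM in kainate replicates 1 to 5. Every kainate library, replicate 1 included, lay well above the highest saline library. The mitotic kinase Cdk1 rose by 3.40 ± 0.45, cyclin Ccnb1 by 3.34 ± 0.47, topoisomerase Top2a by 3.31 ± 0.49 and the spindle protein Prc1 by 3.29 ± 0.45. The change was smaller for the replication clamp Pcna (0.59 ± 0.14), which cells also use in DNA repair. E2F factors drive many of these genes, and their sites (TTTGGCGC or TTTCCCGC, either strand) occurred in 4 of 36 windows of the list (11.1%), against 2.51% of the windows of genes tested. The sites occurred in 2.78% of the windows of genes that were higher and in 0.491% of those of genes that were lower. Mcm3, a subunit of the replicative helicase, is shown because its window, chr1:20820263-20820562 on the minus strand of GRCm38.p6 (RefSeq), holds a match of each form, in capitals.
Mcm3: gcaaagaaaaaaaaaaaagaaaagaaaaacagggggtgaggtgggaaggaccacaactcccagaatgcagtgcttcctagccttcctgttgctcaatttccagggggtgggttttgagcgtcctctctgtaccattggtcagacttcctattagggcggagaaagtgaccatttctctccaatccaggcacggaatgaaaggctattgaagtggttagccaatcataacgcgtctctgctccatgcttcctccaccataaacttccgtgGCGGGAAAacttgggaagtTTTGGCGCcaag

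Ezh2, the enzyme that gives the study its genotypes, is itself more abundant in dividing cells as a rule. It averaged 11.2 ± 1.17 CPM in saline and 15.2 ± 4.53 CPM in kainate (SD, n = 5) and did not pass (0.43 ± 0.16, adjusted p = 0.0906). Ezh2 stood at 11, 12.9, 11.5, 11.2 and 9.61 CPM in saline replicates 1 to 5 and at 10.8, 13.2, 19.8, 20.3 and 11.8 CPM in kainate replicates 1 to 5. Kainate replicates 3 and 4, highest for Mki67, were also highest for Ezh2, and the others lay within or next to the saline range. Of 13 PRC2 genes 1 passed, Phf19 (1.58 ± 0.39), an accessory subunit that binds methylated histone. Over all genes tested 12% passed. Of 28 genes of the p53 response and apoptosis 10 were higher and 1 lower. The initiator caspase Casp8 rose by 1.58 ± 0.33. Hrk, a death-promoting BH3 gene of neurons, fell by 0.65 ± 0.17 (adjusted p = 0.0589 without kainate replicate 3), and the cell cycle inhibitor Cdkn1a did not pass (adjusted p = 0.054). In the fit with the structural RNA covariate 21 cell cycle and 3 apoptosis genes were higher.

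In the oligodendrocyte lineage genes of early stages were among those that passed, and the myelin gene Mbp was not. Of 20 precursor and differentiation genes 8 were higher and 1 lower. Gpr17, a receptor of newly committed oligodendrocytes, stood at 64 to 91.2 CPM in saline and 226 to 369 CPM in kainate (1.98 ± 0.61), and the kinase Fyn (0.74 ± 0.11), Bcas1 (0.71 ± 0.19), the sialidase Neu4 (1.19 ± 0.33) and the factor Nkx2-2 (1.35 ± 0.37) rose too. Pdgfra, the receptor that marks precursors, fell by 0.47 ± 0.14 (95 to 108 CPM in saline and 67 to 85.6 CPM in kainate). Of 24 mature oligodendrocyte genes 3 were higher, and 1 without saline replicate 5 or kainate replicate 3 or 4. Over all genes tested 9.47% were higher. Klk6, a protease of oligodendrocytes, lay at 0.38 to 1.58 CPM in saline and 1.34 to 40.3 CPM in kainate (4.09 ± 0.69), with the iron carrier Trf (1.17 ± 0.32) and the claudin Cldn11 (0.66 ± 0.19). Mbp, which encodes myelin basic protein, did not pass (1908 to 2616 CPM in saline and 1539 to 2756 CPM in kainate, adjusted p = 0.81). Many of these calls ended when 1 library, whichever of several it was, was left out. Without kainate replicate 3, or without kainate replicate 4, 4 precursor genes were higher. Gpr17 passed only with all 10 libraries in the fit or without kainate replicate 1 or 5 (adjusted p otherwise 0.0588 to 0.106). In the fits that lost Gpr17 its change stayed at 1.875 to 2.046. Fyn passed in every case. The structural RNA covariate left 2 precursor and 0 mature oligodendrocyte genes higher, and without kainate replicate 1 there were 5 mature ones.

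Matrix enzymes and their inhibitors were higher in 13 of 31 (median 0.69), against 9.47% of all genes tested. Tgm1, a transglutaminase that cross-links proteins, had the largest rise among genes of at least 10 CPM. Tgm1 stood at 0, 0.0612, 0.103, 0.0808 and 0.0346 CPM in saline replicates 1 to 5 and at 1.66, 8, 72.5, 129 and 7.59 CPM in kainate replicates 1 to 5. The saline libraries held at most a few reads each, and the kainate libraries differed widely, so the fitted change of 9.49 ± 1.35 has a large error. The metalloproteinase Mmp19 rose by 3.13 ± 0.36, thrombospondin Thbs4, a synapse-promoting matrix protein of astrocytes, by 2.19 ± 0.24 (8.68 to 18.3 CPM in saline and 42.6 to 105 CPM in kainate) and tissue plasminogen activator Plat by 0.58 ± 0.12. Of 20 perineuronal net and proteoglycan genes 7 were higher, and 3 or 4 without any 1 of saline replicates 1 to 4 or kainate replicates 3 and 4. The hyaluronan synthase Has2 rose by 2.18 ± 0.36 and the proteoglycan Vcan by 0.93 ± 0.21, both in all 10 refits that left out a library, and Tnr, tenascin-R, by 0.50 ± 0.15, which passed only without kainate replicate 5 among those refits. Aggrecan, Acan, did not pass. Under the structural RNA covariate 5 matrix genes and 1 net gene were higher.

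Lipid handling genes were higher in 13 of 28 (7 without kainate replicate 4, 2 with the structural RNA covariate). The cholesterol exporter Abca1 rose by 1.42 ± 0.23 (85.5 to 102 CPM in saline and 155 to 428 CPM in kainate) and the lipid droplet coat Plin2 by 2.20 ± 0.42. Ch25h, which makes 25-hydroxycholesterol, and the scavenger receptor Msr1 were low in kainate replicates 1, 2 and 5 and reached 8.93 and 13.4 CPM (Ch25h) and 8.49 and 14.8 CPM (Msr1) in replicates 3 and 4. None of 24 cholesterol synthesis genes passed, where 12% of all genes tested did, and their median change was -0.06. Of 31 metallothionein, iron and oxidative stress genes 16 were higher. The metallothioneins Mt3 (0.55 ± 0.12), Mt2 (1.39 ± 0.35) and Mt1 (1.04 ± 0.30), the ferritin light chain Ftl1 (1.06 ± 0.21) and the NADPH oxidase subunits Cybb (3.38 ± 0.63) and Ncf1 (2.21 ± 0.41) were among them. Haem oxygenase Hmox1 rose by 1.61 ± 0.42 but did not pass without kainate replicate 4, which also held for Mt2, and Mt1 was lost without any of saline replicates 2, 3, 4 or 5 or kainate replicates 3 or 4 (adjusted p 0.0574 to 0.0892). Of 24 heat shock genes 5 were higher, where 9.47% of all genes tested were. They were the small heat shock proteins Hspb8 (1.11 ± 0.15) and Hspb6 (2.46 ± 0.34) and the chaperone genes Hsph1, Pdia4 and Bag3. Between 2 and 3 passed without any 1 of saline replicates 1 to 5 or kainate replicates 3 and 4.

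Genes of dentate granule cells were the neuronal list with the largest share of falls. Of 21 tested 8 were lower and 0 higher, against 2.57% of all genes lower, and all 21 changes were negative, from -1.69 to -0.005, the last too small for its sign to be read (median -0.42). Calb1 (ENSMUSG00000028222), the calcium buffer calbindin of mature granule cells, dropped in every kainate library. Calb1 stood at 121, 118, 118, 92.5 and 119 CPM in saline replicates 1 to 5 and at 61.8, 55.5, 45.2, 57.7 and 57.4 CPM in kainate replicates 1 to 5. The groups did not overlap, and the log2 change was -1.03 ± 0.14 (adjusted p = 0.000107). Dsp, desmoplakin, fell without overlap (42.6 to 73.8 CPM in saline and 13 to 22.9 CPM in kainate), the tryptophan dioxygenase Tdo2 changed by -1.69 ± 0.39 (7.11 to 9.47 CPM in saline and 1.56 to 4.34 CPM in kainate), the cation channel Trpc6 by -0.70 ± 0.18 and the synaptic organizer C1ql3 by -0.61 ± 0.14. Prox1, the factor that sets granule cell identity, fell by 0.55 ± 0.15, with overlap because saline replicate 4 lay at 75.9 CPM, and its call ended without saline replicates 2, 3 or 5 or kainate replicate 3 (adjusted p 0.0624 to 0.073). Without saline replicate 3 or kainate replicate 3, 5 granule cell genes were lower, and 3 were with the structural RNA covariate.

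None of 16 CA1 pyramidal cell genes passed, where 12% of all genes tested did. Fibcd1, a receptor gene of CA1 cells, was among them. Fibcd1 stood at 115, 112, 94.5, 100.1 and 101 CPM in saline replicates 1 to 5 and at 84.9, 69.5, 18.1, 35.1 and 91.4 CPM in kainate replicates 1 to 5. All 5 kainate libraries were below saline, replicates 3 and 4 far below and replicates 1 and 5 close to the saline range (adjusted p = 0.0956). Lypd1 did not pass either (94.2 to 110.1 CPM in saline and 40.5 to 78.9 CPM in kainate, adjusted p = 0.063), and Wfs1 ran at 31.2 to 61.4 CPM in saline and 40.8 to 79.8 CPM in kainate. Of 22 CA3 and CA2 genes 3 were lower, against 2.57% of all genes, and 1, Vcan, was higher. Vcan is also counted above among the neutrophil and monocyte markers and the perineuronal net genes. Which cells carried its rise was not tested. Ntf3, the neurotrophin NT-3, fell by 1.23 ± 0.17 (4.2 to 6.61 CPM in saline and 2.14 to 2.74 CPM in kainate), the calcium-binding Necab2 by 0.63 ± 0.15 and Pcp4, a calmodulin regulator, by 0.30 ± 0.08, the last not without saline replicates 2, 3 or 5 or kainate replicates 2 or 3 (adjusted p 0.0507 to 0.0584).

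Of 12 mossy cell and hilar genes 2 were higher, Csf2rb2 and Glipr1, and 1 lower, Rgs12. Over all genes tested 9.47% were higher and 2.57% lower. No gene of this list was higher without kainate replicate 4. Csf2rb2 stood at 8.55 CPM in that library and at 0.64 to 2.4 CPM in the other kainate libraries. Which cells carried the rises of Csf2rb2 and Glipr1 was not tested. Of 17 glucocorticoid-responsive genes 1, Hsd11b1, was lower (-0.67 ± 0.20), a call lost without saline replicates 2, 3 or 5 or kainate replicates 1, 2 or 4 (adjusted p 0.0546 to 0.074). None of the 15 mitochondrial genome genes and none of the 6 sex-linked genes tested passed.

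**Figure D5:**
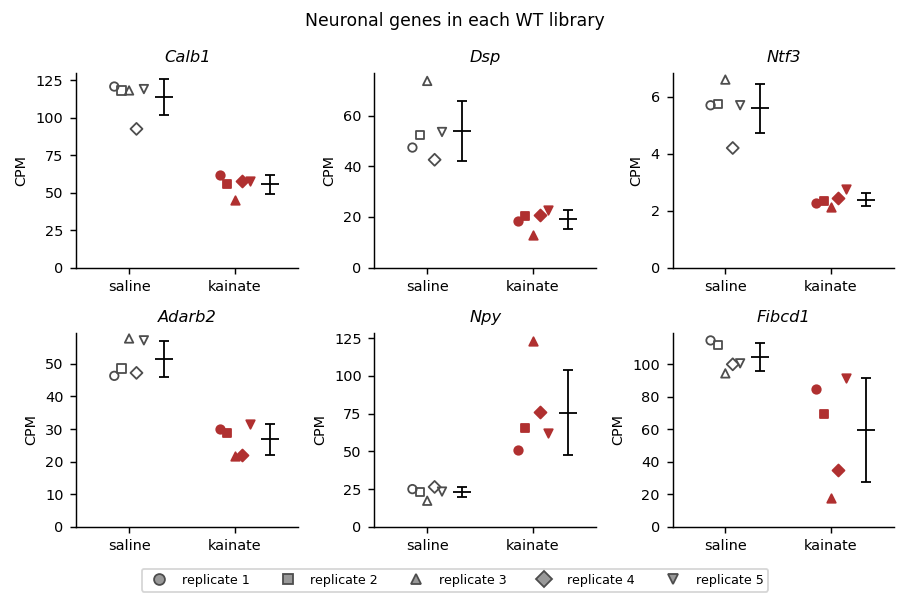
Level of 6 neuronal genes in each WT library (y axis, CPM from 0) after saline (open) and kainate (filled), with the mean and SD of each group beside the points. Calb1, Dsp, Ntf3 and Adarb2 are lower and Npy higher in all 5 kainate libraries, and Fibcd1, which did not pass, spreads from 18.1 to 91.4 CPM.

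Inhibitory neuron genes were lower in 9 and higher in 3 of 30 tested (median -0.36), against 2.57% and 9.47% of all genes tested. Adarb2, a marker of interneurons from the caudal ganglionic eminence, changed by -0.94 ± 0.12 (46.3 to 57.8 CPM in saline and 21.6 to 31.6 CPM in kainate, adjusted p = 8.52e-05), the neuregulin receptor Erbb4 by -0.52 ± 0.12, the cannabinoid receptor Cnr1 by -0.55 ± 0.11 and Ndnf by -0.52 ± 0.13. Gad1, the GABA-making enzyme, fell by 0.41 ± 0.11 without overlap (264 to 302 CPM in saline and 185 to 230.5 CPM in kainate), but not without kainate replicate 3 (adjusted p = 0.052). The interneuron class markers Pvalb (16.8 to 23.8 CPM in saline and 12 to 23 CPM in kainate, adjusted p = 0.707) and Sst (54.9 to 67.5 CPM in saline and 50.3 to 61.2 CPM in kainate, adjusted p = 0.428) did not pass. Npy, the peptide neuropeptide Y with known anticonvulsant action, rose by 1.72 ± 0.28, together with the factors Sox6 and Maf. Npy stood at 25, 23, 17.3, 26.4 and 23.4 CPM in saline replicates 1 to 5 and at 51.1, 65.7, 123, 76.1 and 62.4 CPM in kainate replicates 1 to 5. Replicate 3 was the highest for Npy, ahead of replicate 4. In the fit with the structural RNA covariate 3 members were lower and 1 higher.

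Of 33 neuropeptide and granin genes 5 were higher, Npy with the smallest p, and 1 lower. Over all genes tested 9.47% were higher and 2.57% lower. Nptx2, a pentraxin that clusters AMPA receptors, rose by 1.21 ± 0.26 (8.65 to 11.2 CPM in saline and 17.3 to 30.5 CPM in kainate) and the enkephalin precursor Penk by 1.59 ± 0.41 (9.61 to 17 CPM in saline and 21.2 to 70 CPM in kainate), the second not without kainate replicate 3 or 4. The gene of the peptide galanin, Gal, stood at 10.2 and 7.45 CPM in kainate replicates 3 and 4 and at 0.512 to 0.72 CPM in the others, all above saline. The secretogranin gene Scg3 was the fifth, and without kainate replicate 3, 3 of the 5 were higher. The precursor of thyrotropin-releasing hormone, Trh, reached 13.7 CPM in kainate replicate 3 and 2.9 CPM in replicate 4, lay at 0.304 CPM or less in the other 8 libraries and did not pass (adjusted p = 0.0784). Its receptor gene Trhr fell by 0.96 ± 0.28. Cort, cortistatin, fell by 1.76 ± 0.39 (0.723 to 2.2 CPM in saline and 0.254 to 0.64 CPM in kainate).

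Of 32 growth factor genes 4 were higher and 4 lower, against 9.47% and 2.57% of all genes tested. Bmp4, a bone morphogenetic protein, rose by 1.97 ± 0.32, evenly across libraries. Bmp4 stood at 1.64, 2.14, 3.17, 2.13 and 1.8 CPM in saline replicates 1 to 5 and at 7.62, 9.77, 7.51, 6.28 and 11.4 CPM in kainate replicates 1 to 5. The kainate values lay close together, and replicate 5 was the highest. The activin subunit Inhba rose (5.98 to 7.74 CPM in saline and 9.96 to 44.9 CPM in kainate), with kainate replicate 3 highest, and so did midkine, Mdk (4.71 to 7.78 CPM in saline and 10.6 to 15.5 CPM in kainate), while Tgfb1 (1.59 ± 0.40) was lost without kainate replicate 4. Ntf3, Tgfb2, Gdf10 and Fgf9 were the genes that fell, and without kainate replicate 3 or 4, or saline replicate 5, 1 did, and 2 without saline replicate 3. Bdnf did not pass (35.2 to 38.5 CPM in saline and 36.3 to 57.4 CPM in kainate, adjusted p = 0.167).

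Of 32 immediate early genes, which neuronal activity switches on, 3 were higher and 1 lower (median 0.04), near the 9.47% and 2.57% of all genes tested. Atf3, a stress-induced factor of injured neurons, stood at 14.6 and 11.5 CPM in kainate replicates 3 and 4 and at 1.39 to 1.72 CPM in the others, against 0.346 to 0.86 CPM in saline (3.22 ± 0.61). Fosl1 had 0 reads in saline and 30 in kainate, at least 10.7-fold higher against the floor of 3 reads over the group, and Ier5 was the third. Egr4 fell by 1.08 ± 0.30, a call lost without saline replicate 4 or kainate replicates 2, 3 or 4 (adjusted p 0.051 to 0.0717). Fos (3.4 to 9.94 CPM in saline and 5.98 to 19.1 CPM in kainate), Arc (43.6 to 79 CPM in saline and 19.3 to 65.2 CPM in kainate) and Npas4 (1.28 to 6.46 CPM in saline and 1.52 to 4.75 CPM in kainate) did not pass. Of 22 adult neurogenesis genes 1 was higher, Sox4 (0.68 ± 0.18), and doublecortin, Dcx, did not pass (23.6 to 30 CPM in saline and 23.4 to 29.3 CPM in kainate, adjusted p = 0.74).

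Receptor and channel genes that passed included more falls than rises. Of 22 ionotropic glutamate receptor genes 4 were lower and 0 higher, against 2.57% of all genes lower, namely the AMPA receptor subunits Gria2 (-0.36 ± 0.10) and Gria1 (-0.48 ± 0.15), the kainate receptor subunit Grik1 (-0.31 ± 0.10) and Grid1 (-0.32 ± 0.10). Leaving out 1 library, whichever of several it was, ended these calls. Without saline replicate 1, 2, 3 or 5 or kainate replicate 3 or 4, 0 were lower, and 2 were without saline replicate 4. Gria1 ran at 929 to 992 CPM in saline and 450.4 to 932 CPM in kainate, with replicates 3 and 4 lowest. Grm5, a metabotropic glutamate receptor, fell by 0.38 ± 0.09 and passed in all 10 refits that left out a library, as did Gabrd, the subunit of extrasynaptic GABA receptors on granule cells, which fell by 0.71 ± 0.18 (17.2 to 19.8 CPM in saline and 6.16 to 14.6 CPM in kainate). Of 46 potassium channel genes 4 were lower, Kcng3 (-1.35 ± 0.19), Kcnk9 (-0.72 ± 0.16), Kcnt2 (-0.47 ± 0.10) and Kcnip2 (-0.79 ± 0.21), and 3 higher, Kcnk6 (1.85 ± 0.31), Kcnip3 (0.45 ± 0.10) and Kcnd1 (0.47 ± 0.15). Over all genes tested 2.57% were lower and 9.47% higher. Ryr1, a calcium release channel, fell by 1.25 ± 0.23 (9.91 to 13.9 CPM in saline and 4.39 to 6.58 CPM in kainate), and the sodium channel subunits Scn3a and Scn3b (-0.67 ± 0.19) passed only in part of the refits. Of 30 presynaptic genes 1 was lower, Rims1, lost without saline replicates 1, 2, 3 or 5 or kainate replicates 3 or 4 (adjusted p 0.0684 to 0.102), and of 26 postsynaptic density genes 1 (Lrrtm4, -0.59 ± 0.12). Without kainate replicate 5, 6 postsynaptic density and 3 presynaptic genes were lower, and without kainate replicate 1, 3 of each. Their median changes were -0.24 and -0.1, with 3 and 7 changes positive. Of 32 HCN, sodium and calcium channel genes 3 were lower, 6 without kainate replicate 1 and 5 without kainate replicate 5. That count was 1 without saline replicate 2 or 3 or kainate replicate 3 or 4. With the structural RNA covariate 0 ionotropic receptor genes and 1 potassium channel gene were lower.

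The largest falls among genes of at least 10 CPM without overlap that have a named symbol (no Rik, Gm or clone name) were, after Dsp and Calb1, Fat4, a giant cadherin (-1.03 ± 0.14), the long noncoding RNA Miat (-1.01 ± 0.18), Trhr, Adarb2, Fam163a (-0.92 ± 0.19), Col19a1 (-0.88 ± 0.17), Kif26b (-0.85 ± 0.17), Zcchc12 (-0.83 ± 0.19), the kinase Pnck (-0.83 ± 0.17) and the dendritic protein gene Ddn (-0.81 ± 0.24). Fat4 lay at 93.8 to 148 CPM in saline and 55.5 to 71.9 CPM in kainate. Ddn lay at 917 to 951 CPM in saline and at 676, 619, 260, 269 and 838 CPM in kainate replicates 1 to 5, and its call ended without saline replicates 1, 2, 3, 4 or 5 or kainate replicates 3 or 4 (adjusted p 0.0569 to 0.0836). Outside the lists, 6 further genes were among the 10 with the smallest p-values. Blnk, an adaptor of B cells and microglia, lay at 2.21 to 3.1 CPM in saline and 7.36 to 13.1 CPM in kainate (1.85 ± 0.17). Kirrel2, an adhesion protein of the nephrin family, changed by -1.76 ± 0.17 (3.69 to 4.48 CPM in saline and 0.835 to 1.49 CPM in kainate) and the gene 2900052N01Rik, known by its clone name, by -1.40 ± 0.14 (39.2 to 53.1 CPM in saline and 14.4 to 21.9 CPM in kainate). The receptor gene Treml2 (4.18 ± 0.42), the collagen hydroxylase P4ha3 (2.74 ± 0.27) and stomatin, Stom (1.14 ± 0.12), rose, and all 6 genes passed with the structural RNA covariate as well.

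Further genes named above passed with all libraries but not in each of the 10 refits that left out 1, given here by the replicates concerned. Hmox1, Msr1, Mt2, Sox6, Tgfb1 and Csf2rb2 were lost without kainate 4 (adjusted p 0.0506 to 0.0729). Bcas1 was lost without saline 5 (adjusted p = 0.0549). Penk, Ms4a7 and Col5a2 were lost without kainate 3 or 4 (adjusted p 0.0533 to 0.0919). Myh11 was lost without saline 4 or kainate 4 (adjusted p 0.059 to 0.0657). Kcnip2 was lost without saline 5 or kainate 4 (adjusted p 0.0517 to 0.0745). Glipr1 was lost without saline 2 or kainate 3 or 4 (adjusted p 0.0526 to 0.0852). Hsph1 was lost without saline 3 or 4 or kainate 3 (adjusted p 0.0582 to 0.0709). Gdf10 and Trf were lost without saline 5 or kainate 3 or 4 (adjusted p 0.058 to 0.0874). Col6a1 and Col3a1 were lost without saline 1 or 2 or kainate 3 or 4 (adjusted p 0.0606 to 0.114). Gja1 was lost without saline 2 or 5 or kainate 3 or 4 (adjusted p 0.0512 to 0.0537). Nkx2-2 and Tgfb2 were lost without saline 3 or 5 or kainate 3 or 4 (adjusted p 0.0515 to 0.0768). Neu4 and Scn3b were lost without saline 1, 2 or 3 or kainate 3 or 4 (adjusted p 0.0507 to 0.0806). Cd74 and Pdia4 were lost without saline 1, 2 or 5 or kainate 3 or 4 (adjusted p 0.053 to 0.203). Scn3a was lost without saline 2, 3 or 5 or kainate 3 or 4 (adjusted p 0.05 to 0.0741). Gria2 and Tagln were lost without saline 1, 2, 3 or 5 or kainate 3 or 4 (adjusted p 0.0542 to 0.137). Atp1b2 was lost without saline 1, 3, 4 or 5 or kainate 3 or 4 (adjusted p 0.0671 to 0.14). Cldn11 was lost without saline 1, 4 or 5 or kainate 2, 3 or 4 (adjusted p 0.0551 to 0.084). Trhr was lost without saline 1 or 5 or kainate 2, 3, 4 or 5 (adjusted p 0.0523 to 0.0911). Maf was lost without saline 1, 2, 3 or 4 or kainate 1, 3 or 4 (adjusted p 0.0623 to 0.147). Ccr2, Fn1 and Grid1 were lost without saline 1, 2, 3, 4 or 5 or kainate 3 or 4 (adjusted p 0.0503 to 0.224). Ier5 was lost without saline 1, 2, 3, 4 or 5 or kainate 3 or 5 (adjusted p 0.051 to 0.0994). Hbb-bs was lost without saline 1, 2, 4 or 5 or kainate 1, 3 or 4 (adjusted p 0.053 to 0.119). Scg3 was lost without saline 2, 3, 4 or 5 or kainate 1, 2 or 3 (adjusted p 0.0595 to 0.101). Rpph1 was lost without saline 1, 2, 3 or 4 or kainate 2, 3, 4 or 5 (adjusted p 0.0624 to 0.093). Gria1, Fgf9 and Bag3 were lost without saline 1, 2, 3, 4 or 5 or kainate 2, 3 or 4 (adjusted p 0.0538 to 0.157). Grik1 was lost without saline 1, 2, 3, 4 or 5 or kainate 3, 4 or 5 (adjusted p 0.0678 to 0.123). Pdgfra was lost without saline 1, 3, 4 or 5 or kainate 1, 2, 3 or 5 (adjusted p 0.0539 to 0.0947). Ogn was lost without saline 1, 3, 4 or 5 or kainate 2, 3, 4 or 5 (adjusted p 0.0515 to 0.11). Tnr and Kcnd1 were lost without saline 1, 2, 3, 4 or 5 or kainate 1, 2, 3 or 4 (adjusted p 0.0566 to 0.141). Rmrp was lost without saline 1, 2, 3, 4 or 5 or kainate 2, 3, 4 or 5 (adjusted p 0.0519 to 0.152).

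Of the 260 genes checked for shared sequence, reads of some could also come from other genes. In the GENCODE vM21 transcripts, at least 20% of the 32-base words of Rmrp, Rpph1, Cfb, Cntf, Trf, Ftl1, Hbb-bs, Trbc2, C4b, Chil3, Ctsd, Ifi204, Lyz2, Ccnb1, H2-D1, Pcna, Csf2rb2, H2-K1 and Serpina3n also occur in another gene model. An opposite-strand gene overlaps at least 20% of the exon bases of Mt2, C1ql3, Sox4, Mmp19, Ftl1, Lrrtm4, Miat, Rmrp, Nefl, Tagln, Folr2, Fosl1 and Glipr1. A same-strand gene does so for Rmrp, Cfb, Cntf, Rpph1, Trf, Ctsd and Pcp4. The strand setting of the counts is not given in the sources used here, so the levels of these genes are uncertain by what such sharing adds.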

How the data were processed

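Total RNA of frozen hippocampus was depleted of cytoplasmic and mitochondrial rRNA before sequencing, per the labels' protocols. The authors deposited a table of raw read counts per gene for the 19 libraries, with no normalization, and this table gave every result. A second deposited table, used for gene symbols only, holds normalized counts as a signal, log2 fold changes, a test score and p-values, per the file headers. The submitters' processing notes name DESeq2, DESeq and mm39. The aligner, counter and strand setting are not given in the sources used here.

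Of 55416 genes, 19234 passed edgeR's filterByExpr. Genes with few or no reads in WT saline could pass only through the other groups. The numbers tested in each list include genes admitted that way. TMM factors, 4 group means over all 19 libraries and the robust quasi-likelihood test (edgeR 4.0.16, R 4.3.3) gave log2 changes, kainate minus saline, with Benjamini-Hochberg adjustment over all genes tested. CPM used TMM library sizes. Values after ± are the SE for log2 changes and the SD over 5 libraries for CPM. Library measures were compared by exact two-sided permutation tests over 252 relabellings. The test was tried on counts simulated with the same spread in every group. The kainate libraries spread more than the saline libraries here, and the trial does not cover that difference. Counts per library of 24496685 reads or more leave the spread between libraries, not counting error, as the main limit on all but low genes. Alternatives were DESeq2 1.42.0, limma 3.58.1 (voom), other size factors, filters and thresholds, fewer libraries and covariates.

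The 56 gene lists and the genes named were chosen with earlier results of these data known. The text names the 12 largest rises and falls of genes averaging 10 CPM without overlap and with a named symbol (no Rik, Gm or clone name), the 10 smallest p, the 6 largest kainate SDs, up to 6 members by p per list and direction, and further members by their role. Those further members, and those named to complete a small count, were chosen after their values were seen. Sequences are RefSeq promoters of GRCm38.p6, a build other than that of the counts, so they were joined by gene symbol only, and shared sequence was checked by gene ID in GENCODE vM21. The STAT core (TTC, any 3 bases and GAA) was also searched for in these windows. It occurred in 4 of 34 windows (11.8%) of the reactive astrocyte secreted and surface genes and 1 of 11 (9.09%) of the intermediate filaments. Its share was 6.89% over genes tested, 7.84% over higher genes and 6.88% over lower genes. Results of some genes are not reported here.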

Additional observations from a re-analysis of the deposited data

Results flagged for a closer look

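Of 640 sets of 5 libraries checked for a library far from the others, 33 (5.2%) had such a library, where chance gives about 1 in 20. A library counted when its gap to the nearest other, over the range of the 5, exceeded 0.71, Dixon's critical value. Kainate replicate 4 stood apart for Arc at 19.3 (55.1 to 65.2), Blnk at 13.1 (7.36 to 8.89), Cd74 at 40.5 (2.53 to 11) and Clcf1 at 9.61 (0.533 to 2.43), in CPM with the range of the other 4 libraries of its group in parentheses. It also stood apart for Mt2 at 160.3 (85.8 to 106), Nefh at 34 (49.2 to 53), S100a9 at 2.04 (0.448 to 0.871) and Csf2rb2 at 8.55 (0.64 to 2.4). Saline replicate 3 stood apart for Ccnb1 at 1.93 (1.01 to 1.24), Ccr2 at 0.964 (0.45 to 0.489), Cd33 at 7.81 (5.75 to 5.96) and Hbb-bs at 408 (142 to 189), in CPM. It also stood apart for S100a8 at 0.895 (0.398 to 0.483) and S100a9 at 1.75 (0.45 to 0.55). Saline replicate 4 stood apart for Calb1 at 92.5 (118 to 121), Kcnk9 at 48.7 (55.8 to 58.3) and Selp at 0.0269 (0), in CPM. With 0 CPM in the rest of its group, any read in that library sets Selp apart by this rule. Saline replicate 1 stood apart for Cx3cr1 at 62.2 (58.7 to 59.4), Lmnb1 at 4.87 (4.08 to 4.25) and Nefm at 49.5 (43 to 44.9), in CPM. Saline replicate 5 stood apart for Gdf10 at 8.58 (7.03 to 7.09), Thbs4 at 8.68 (16.1 to 18.3) and Trf at 275 (420.3 to 440.4), in CPM. Kainate replicate 3 stood apart for Inhba at 44.9 (9.96 to 19.5), Lyve1 at 0.218 (0.609 to 0.768) and Trh at 13.7 (0.192 to 2.9), in CPM. Saline replicate 2 stood apart for Lpl at 22 (26.9 to 28.8), in CPM. Kainate replicate 1 stood apart for Kcng3 at 4.42 (2.4 to 2.93), in CPM. The mean log2 CPM of the neutrophil and monocyte markers was 0.74 in saline replicate 3 against -0.52 to -0.24 in the rest of the group. The mean log2 CPM of the mossy cell and hilar genes was 3.62 in kainate replicate 4 against 3.11 to 3.25 in the rest of the group. The mean log2 CPM of the neuropeptide and granin genes was 3.64 in saline replicate 3 against 3.81 to 3.86 in the rest of the group. The mean log2 CPM of the neuropeptide and granin genes was 4.34 in kainate replicate 3 against 3.94 to 4.00 in the rest of the group. The share of red blood cell reads was 0.08428% in saline replicate 3 against 0.02757 to 0.03772% in the rest. The part of these libraries in the results above was tested only by leaving each out.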

How the results depend on the processing

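Against 2316 genes (1821 higher, 495 lower), limma-voom with quality weights called 4234 (1604 lower; 62.1% of its calls higher, against 78.6%), an adjusted p under 0.01 left 1083 (961 higher, 122 lower; 88.7% higher), and the structural RNA share as a covariate left 605 (510 higher, 95 lower), of which 580 were among the 2316. Testing without a filter on low counts gave 317 lower genes, and the 10 WT libraries alone gave 997. Leaving out kainate replicates 1 and 3 together gave 203 lower genes. Over the fits that left out 1 library, 1360 to 2672 genes passed, 1143 to 2045 higher and 187 to 627 lower, the most without kainate replicate 1. Lower genes numbered 231, 271, 249, 187 and 217 without saline replicates 2, 3 and 5 and kainate replicates 3 and 4. The cause of these shifts was not tested. Among the 6 libraries whose code prefixes occur in both groups (2 saline, 4 kainate), edgeR with the prefix as a block called 0 genes, 0 higher and 0 lower, with 2230 at an unadjusted p under 0.05, and no other tool was run on them. What the prefixes mean is not stated in the labels.

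Of the 229 named genes that passed, 229 kept their direction in every alternative that gave them a value. These alternatives used the same libraries or part of them, so they are no independent test of direction. With the prefix as a block in the 6 libraries, 0 of the 229 passed. 160 passed in all 10 fits that left out 1 library, 170 to 222 in each such fit, and 102 with the structural RNA covariate. Without kainate replicate 1 the structural RNA difference was 0.1055 percentage points (exact permutation, adjusted p = 0.0198), the top of a range of 0.0722 to 0.1055, and the mitochondrial difference -1.481 (adjusted p = 0.0198), in a range of -1.481 to -0.8425.

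With the replicate number as a block 1921 genes passed, 1503 higher and 418 lower, 1836 of them among the 2316, and 196 of the 229 named genes that had passed. Same-numbered libraries had deviations correlated at 0.0999, 0.4745, 0.2602, 0.1596 and 0.2927 over 15239 genes, and the best match was the own number for saline replicates 2, 3 and 5 and kainate replicates 2 and 5 only, so the numbers were not taken as pairs. Depth limits genes of few reads, such as most T cell markers, which the filter left out of the test.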
